A study of Homo sapiens with 10 samples.

Results

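The matrix metalloproteinases (MMP), the ADAM and ADAMTS proteases and their tissue inhibitors (TIMP) were followed in WA09, a long-established line of human embryonic stem cells (hESC), and in 4 cell types derived from them. Members were taken by name only: every gene symbol made of MMP, ADAM, ADAMTS or TIMP and a number, on chromosomes 1 to 22 and X, whatever its level. The rule found 67 of the 22848 symbols present in all 4 deposited tables, with 22 MMP, 22 ADAM, 19 ADAMTS and 4 TIMP genes, and every one had a value in every table. Polyadenylated RNA of 10 libraries, 2 per cell type, was sequenced at passages 52 to 58. The values are FPKM, a count of fragments scaled to transcript length and to the fragments mapped, which allow levels of different genes to be set beside each other.

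Definitive endoderm (DE) was made in 4 days in activin A (100 ng/mL) and FGF (8 ng/mL), plus Wnt-3a (25 ng/mL) during day 1 alone, and lacked IGF-I and heregulin. Splanchnic mesoderm (MESO) was made in 4 days with FGF at 8, IGF-I at 200, activin A at 10, heregulin at 10, Wnt-3a at 25 and BMP-4 at 100 ng/mL. Neural progenitor cells (NPC) were made in 6 days with IGF-I at 200 and heregulin at 10 ng/mL, LDN (500 nM), which blocks BMP receptors, and SB431542, which blocks activin receptors, and with neither FGF nor activin A. Pre-neural crest cells (NCSC) were made in 6 days with FGF at 8, IGF-I at 200 and heregulin at 10 ng/mL, SB431542 and the GSK3 inhibitor BIO, and with no activin A. The hESC were kept for 4 days in FGF at 8, IGF-I at 200, activin A at 10 and heregulin at 10 ng/mL. All cells grew on matrigel, itself a protein matrix. NPC and NCSC were seeded at 90000 cells per square centimetre, and the other cell types at 50000.

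MMPs are zinc proteases that cut collagens, laminins and other matrix proteins, some secreted and some held at the cell surface, and most are made as inactive precursors. ADAMs are transmembrane proteases that release the outer part of surface proteins such as Notch receptors, cadherins and growth factor precursors, although several lack a working active site. ADAMTS enzymes are secreted and include the enzymes that cleave versican and aggrecan and those that trim procollagens. TIMPs bind the active sites of MMPs, and TIMP3 also inhibits several ADAM and ADAMTS enzymes.

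Promoter sequences are shown for 4 members with high levels in a derivative and for 2 members of a chromosome 11 gene group that stayed near 0, since the letters of these promoters differ. Each is the 250 bases before the annotated start in RefSeq (build GRCh38.p14), 5′ to 3′ on the strand of the gene. Capitals mark a GC box (GGGCGG or its reverse complement CCGCCC), an AP-1 motif (TGANTCA) or a TATA box (TATAAA), sought on both strands. The 6 were chosen after their levels were seen.
TIMP3 (chr22:32801455-32801704, plus strand): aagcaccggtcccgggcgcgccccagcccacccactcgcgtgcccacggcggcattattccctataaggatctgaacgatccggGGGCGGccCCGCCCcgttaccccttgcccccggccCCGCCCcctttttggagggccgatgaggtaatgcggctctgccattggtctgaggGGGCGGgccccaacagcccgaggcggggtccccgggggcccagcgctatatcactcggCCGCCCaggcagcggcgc
ADAM19 (chr5:157575776-157576025, minus strand): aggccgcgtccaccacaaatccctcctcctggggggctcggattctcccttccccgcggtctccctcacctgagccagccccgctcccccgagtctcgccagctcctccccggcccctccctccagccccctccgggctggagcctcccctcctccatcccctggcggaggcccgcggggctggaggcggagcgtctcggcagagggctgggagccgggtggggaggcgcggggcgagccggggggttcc
ADAMTS18 (chr16:77435035-77435284, minus strand): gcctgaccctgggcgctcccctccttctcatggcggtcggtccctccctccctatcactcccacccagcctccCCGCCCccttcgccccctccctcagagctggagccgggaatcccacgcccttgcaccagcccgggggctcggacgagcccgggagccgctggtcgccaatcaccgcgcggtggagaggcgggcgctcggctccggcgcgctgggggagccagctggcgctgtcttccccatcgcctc
MMP14 (chr14:22836335-22836584, plus strand): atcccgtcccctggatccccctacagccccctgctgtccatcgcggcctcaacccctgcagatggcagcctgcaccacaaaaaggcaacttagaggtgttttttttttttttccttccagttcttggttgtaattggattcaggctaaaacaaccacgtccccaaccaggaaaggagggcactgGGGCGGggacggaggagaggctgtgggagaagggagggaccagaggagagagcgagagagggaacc
MMP7 (chr11:102530748-102530997, minus strand): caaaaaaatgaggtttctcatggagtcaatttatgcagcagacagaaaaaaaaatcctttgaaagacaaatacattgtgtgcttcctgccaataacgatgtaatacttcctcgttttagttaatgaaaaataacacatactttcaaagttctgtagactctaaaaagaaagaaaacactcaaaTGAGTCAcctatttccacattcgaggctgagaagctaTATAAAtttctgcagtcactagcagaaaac
MMP10 (chr11:102780629-102780878, minus strand): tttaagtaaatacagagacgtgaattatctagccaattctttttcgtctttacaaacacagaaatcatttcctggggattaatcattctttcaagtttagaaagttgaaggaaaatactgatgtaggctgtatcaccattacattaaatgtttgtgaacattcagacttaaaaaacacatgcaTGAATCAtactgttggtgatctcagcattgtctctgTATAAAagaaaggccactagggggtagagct

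In MMP7 an AP-1 match starts 67 bases and a TATA box 30 bases before the start, and in MMP10 they start 67 and 31 bases before it. TIMP3 holds 5 GC boxes, ADAMTS18 and MMP14 hold 1 each, and ADAM19 holds none of the 3 motifs in this window. RefSeq promoters were matched for 38 of the 67 members. Among 26 matched members with at least 1 FPKM in some cell type, 24 held a GC box, 1 an AP-1 match and 1 a TATA box. Among the 5 matched members of the chromosome 11 group, 4 held a TATA box, 3 an AP-1 match and 0 a GC box. Among the 7 matched members below 1 FPKM elsewhere in the genome, 2 held a TATA box, 0 an AP-1 match and 1 a GC box, so few GC boxes were found in either set of low members. Over all 35116 promoters of this length, 42.6% held a GC box, 10.7% a TATA box and 6.57% an AP-1 match. A match describes letters and says nothing about which factor was bound.

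Of the 67 members, 44 reached 1 FPKM in at least 1 cell type, 20 reached 10 FPKM, and 23 stayed below 1 FPKM throughout. The members below 1 FPKM everywhere were ADAM2, ADAM5, ADAM6, ADAM7, ADAM18, ADAM20, ADAM21, ADAM29, ADAM30, ADAM32, ADAMTS5, ADAMTS17, MMP1, MMP3, MMP7, MMP8, MMP10, MMP12, MMP13, MMP20, MMP21, MMP26 and MMP27. Of these, ADAM5, ADAM6, ADAM30, MMP8, MMP13 and MMP27 were listed at 0 in all columns, and RefSeq annotates ADAM5 and ADAM6 as transcribed pseudogenes. Some of these low members are neighbours. On chromosome 11, from 102391238 to 102826463 (hg19), 9 MMP genes follow each other: MMP7, MMP20, MMP27, MMP8, MMP10, MMP1, MMP3, MMP12 and MMP13. The group includes interstitial collagenase (MMP1), stromelysin (MMP3) and matrilysin (MMP7), which are secreted enzymes. The highest level of any of the 9 in any cell type was 0.195 FPKM, for MMP10 in MESO.

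**Figure D1:**
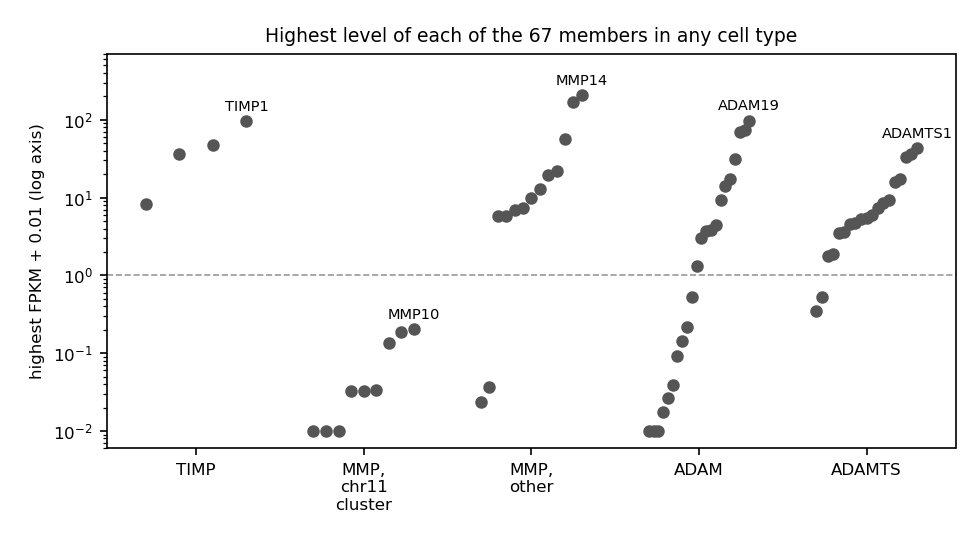
Highest deposited FPKM (plus 0.01, log axis) of each of the 67 members in any cell type and table, by subfamily, each point 1 member, with the dashed line at 1 FPKM. The 9 MMP genes of the chromosome 11 group stay at or below 0.195 FPKM, whereas MMP14 reaches 207 FPKM.

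The members that stood at 10 FPKM or more in every hESC column were TIMP1, TIMP2, MMP14, MMP15, MMP19, MMP25, ADAM9, ADAM10, ADAM17 and ADAMTS7. Thus hESC expressed inhibitors, membrane MMPs and the main surface sheddases, ADAM10 and ADAM17. The hESC column was deposited anew in each table, and its values differed between tables. Over 37 members with at least 1 FPKM in all 4 hESC columns, the highest hESC value was a median of 1.31 times the lowest, with 2.85 times for MMP24 and 2.21 times for MMP14. The MMP14 values are not of the same locus. Its lowest hESC value, 30.9 FPKM in the NPC table, is of MMP14 alone, and the others are of a locus merged with MRPL52. Each derivative was therefore set only against the hESC column of its own table, and the 4 comparisons share the same hESC libraries.

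A member is said to have risen or fallen where the q-value in the authors' deposited table was below 0.05. The replicates were combined by the authors into 1 value per cell type, so no spread between libraries, and no depth, can be given for any value. Whether the 2 libraries of a cell type came from separate cultures is not stated. In bulk RNA, fewer cells of a type and less RNA per cell cannot be told apart. Members with a p-value of 1 and a statistic of 0 in the authors' deposited table count as not tested, and 21 members were tested in no table. In all, 33 of the 67 members changed in at least 1 comparison and 34 in none.

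In DE, ADAM19 rose and 0 members fell, of 42 tested, which is 2.38%, and 0.426% of all 14789 loci tested changed (0.406% rose and 0.0203% fell). At an unadjusted p-value below 0.05 in the authors' deposited table, 5 members were higher in DE, namely ADAM19, ADAMTS1, ADAMTS9, ADAMTS18 and MMP2, and 0 were lower. In MESO, 15 members rose and 3 fell of 46 tested, 32.6% and 6.52%, where 9.05% of all 14796 loci tested rose, 5.37% fell and 14.4% changed. In NPC, 7 members rose and 13 fell of 41 tested, 17.1% and 31.7%, where 12.0% of all 14863 loci tested rose, 24.8% fell and 36.8% changed. In NCSC, 10 members rose and 10 fell of 41 tested, 24.4% each, where 10.2% of all 14901 loci tested rose, 19.7% fell and 29.9% changed. The share of members that rose in MESO was above that over all loci, whereas the shares in NPC lay nearer to theirs. Of the members called in MESO, 7 stood below 1 FPKM in hESC (ADAM12, ADAM28, ADAMTS5, ADAMTS6, ADAMTS9, ADAMTS18 and TIMP3), and ADAM28, ADAMTS5 and ADAMTS18 were not tested in NPC or NCSC, where they were low. Such a member can enter the share through its high MESO value, so the share is a description and no support for a rise of the family. With normal p-values computed from the statistics in the authors' deposited table, DE had ADAM19 as its 1 call, MESO had 9 members higher and 3 lower, and NCSC had 3 higher and 8 lower, where 767 of all loci were higher in MESO. With those statistics centred on the median of all loci, MESO again had 9 higher and 3 lower. With members that share a locus with another gene left out, MESO had 9 rises and 3 falls. Centred in the same way, NPC had 7 higher and 8 lower, and NCSC 6 higher and 5 lower.

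**Figure D2:**
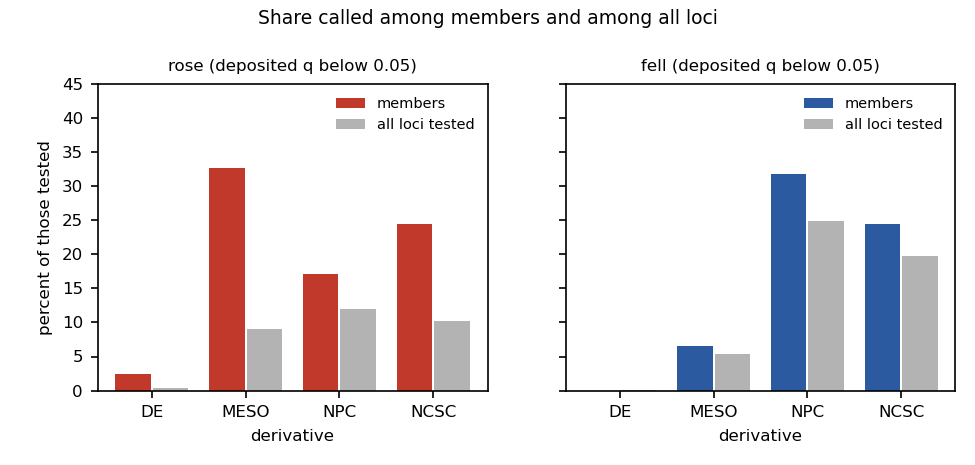
Percent of tested members (coloured) and of all loci tested (grey) that rose (left) or fell (right) at a deposited q-value below 0.05, for each derivative against hESC. In MESO 32.6% of members rose against 9.05% of all loci, and in NPC 31.7% of members fell against 24.8% of all loci.

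Changes are differences in log2(FPKM + 1), derivative minus hESC, and this scale understates the change of low genes. Over members that reached 1 FPKM in the derivative or in hESC, the median change was 0.13 in DE (40 members), 0.44 in MESO (44), -0.21 in NPC (41) and -0.19 in NCSC (41). The medians over all loci that met the same minimum were 0.05 in DE, 0.07 in MESO, -0.27 in NPC and -0.23 in NCSC. A member below 1 FPKM in hESC enters such a median through a higher derivative value, which was so for 3 members in DE, 7 in MESO, 4 in NPC and 3 in NCSC. These medians are a description with no test.

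The cell types were checked against marker genes. In DE 4 of 5 endoderm markers rose, in MESO 5 of 5 mesoderm markers rose, and in NPC 4 of 5 neural markers rose. The remaining neural marker, LHX2, did not pass, at 29.0 FPKM in NPC and 0.0482 FPKM in hESC (q-value 0.0566 in the authors' deposited table). In NCSC, PAX3 and SNAI2 rose, whereas FOXD3 fell and was listed at 0 in NCSC against 10.7 FPKM in hESC, SOX10 stood at 2.91 FPKM in NCSC and 2.57 FPKM in hESC, and TFAP2A at 0.0463 FPKM in NCSC and 0.289 FPKM in hESC. NCSC is therefore used here as the name of the culture, with 2 of 5 markers of neural crest raised. Markers of other cell types rose in each culture. PAX3 and SNAI2 also rose in NPC, at 1.87 and 3.78 FPKM in NPC against 0.0737 and 0.288 FPKM in hESC. The neural marker SOX1 rose in NCSC, at 9.56 FPKM in NCSC against 0.284 FPKM in hESC. The mesoderm marker GATA4 rose in DE, at 56.1 FPKM in DE against 0.846 FPKM in hESC. The endoderm marker CXCR4 rose in all 4 derivatives, and GATA6 rose in MESO as well as in DE. Of the 5 neural crest markers PAX3, SNAI2 and TFAP2A rose in MESO and SOX10 fell, with a sum of 122 FPKM in MESO and 13.4 FPKM in hESC, beside a sum of 33.3 FPKM in NCSC and 13.9 FPKM in hESC. The sum of 5 amnion and trophoblast markers was 214 FPKM in MESO and 8.75 FPKM in hESC, with CGA, KRT7 and VTCN1 rising, GCM1 at 16.7 FPKM in MESO and 0.0241 FPKM in hESC, and HLA-G at 5.94 FPKM in MESO and 6.83 FPKM in hESC. The sum of 5 fibroblast markers was 982 FPKM in MESO and 115 FPKM in hESC, with 4 of 5 rising. Of 4 endothelial markers KDR and TEK rose, and PECAM1 stood at 0.0701 FPKM in MESO and 0.0176 FPKM in hESC. Of 4 blood markers RUNX1 rose in MESO, and PTPRC stood at 0.0051 FPKM in MESO and 0.00445 FPKM in hESC. The part of other cell types in the results of MESO or of any other culture was not tested. In the other derivatives the amnion and trophoblast sum was 9.49 FPKM in DE against 10.3 FPKM in hESC, 1.82 FPKM in NPC against 9.43 FPKM in hESC, and 3.41 FPKM in NCSC against 8.86 FPKM in hESC.

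Among the inhibitors, TIMP3 rose in MESO, TIMP1 rose in NCSC and TIMP2 fell in NPC, and in DE no TIMP passed the test. With normal p-values, centred or not, none of these 3 calls was made. TIMP1, a soluble inhibitor of most MMPs, stood at 59.4 FPKM in DE against 36.1 FPKM in hESC, 88.2 FPKM in MESO against 33.2 FPKM in hESC, 37.7 FPKM in NPC against 36.6 FPKM in hESC, and 97.1 FPKM in NCSC against 34.5 FPKM in hESC. It passed the test in NCSC, 2.81-fold above hESC with a q-value of 0.0134 in the authors' deposited table. In MESO, where the ratio was 2.66, the q-value in the authors' deposited table was 0.188.

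TIMP2, which both inhibits MMPs and brings the MMP2 precursor to MMP14 for activation, stood at 34.6 FPKM in DE against 26.4 FPKM in hESC, 47.6 FPKM in MESO against 27.2 FPKM in hESC, 18.9 FPKM in NPC against 30.4 FPKM in hESC, and 17.5 FPKM in NCSC against 28.5 FPKM in hESC. The values in NPC and NCSC were close to each other, and the q-values in the authors' deposited table lay on either side of the threshold, 0.0468 in NPC and 0.0535 in NCSC. TIMP3, the matrix-bound member, stood at 4.86 FPKM in DE against 0.646 FPKM in hESC, 36.7 FPKM in MESO against 0.770 FPKM in hESC, 6.80 FPKM in NPC against 0.873 FPKM in hESC, and 1.29 FPKM in NCSC against 0.807 FPKM in hESC. It was the only inhibitor below 1 FPKM in every hESC column, and its rise in MESO was 47.6-fold (q-value 0.0112 in the authors' deposited table). TIMP4 stood at 4.87 FPKM in DE against 5.53 FPKM in hESC, 0.440 FPKM in MESO against 7.29 FPKM in hESC, 0.0402 FPKM in NPC against 8.24 FPKM in hESC, and 0.376 FPKM in NCSC against 7.80 FPKM in hESC. In spite of these ratios TIMP4 did not pass at the deposited q-value in any comparison, with a lowest q-value of 0.268 in the authors' deposited table. With normal p-values TIMP4 was called lower in NCSC, and with centred ones it was not.

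All 4 TIMP genes lie in loci that the tables give to more than 1 gene: TIMP1 with SYN1 and ARAF, TIMP2 with LOC100653515, TIMP3 with SYN3 and TIMP4 with SYN2. Whether the counting used strand is not given in the sources used here, so reads of such neighbours may not have been told apart. SYN3, a synapsin gene, moved opposite to TIMP3, with 0.283 FPKM in MESO against 12.9 FPKM in hESC. The summed level of the 4 inhibitors was 104 FPKM in DE against 68.6 FPKM in hESC, 173 FPKM in MESO against 68.4 FPKM in hESC, 63.4 FPKM in NPC against 76.1 FPKM in hESC, and 116 FPKM in NCSC against 71.6 FPKM in hESC.

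**Figure D3:**
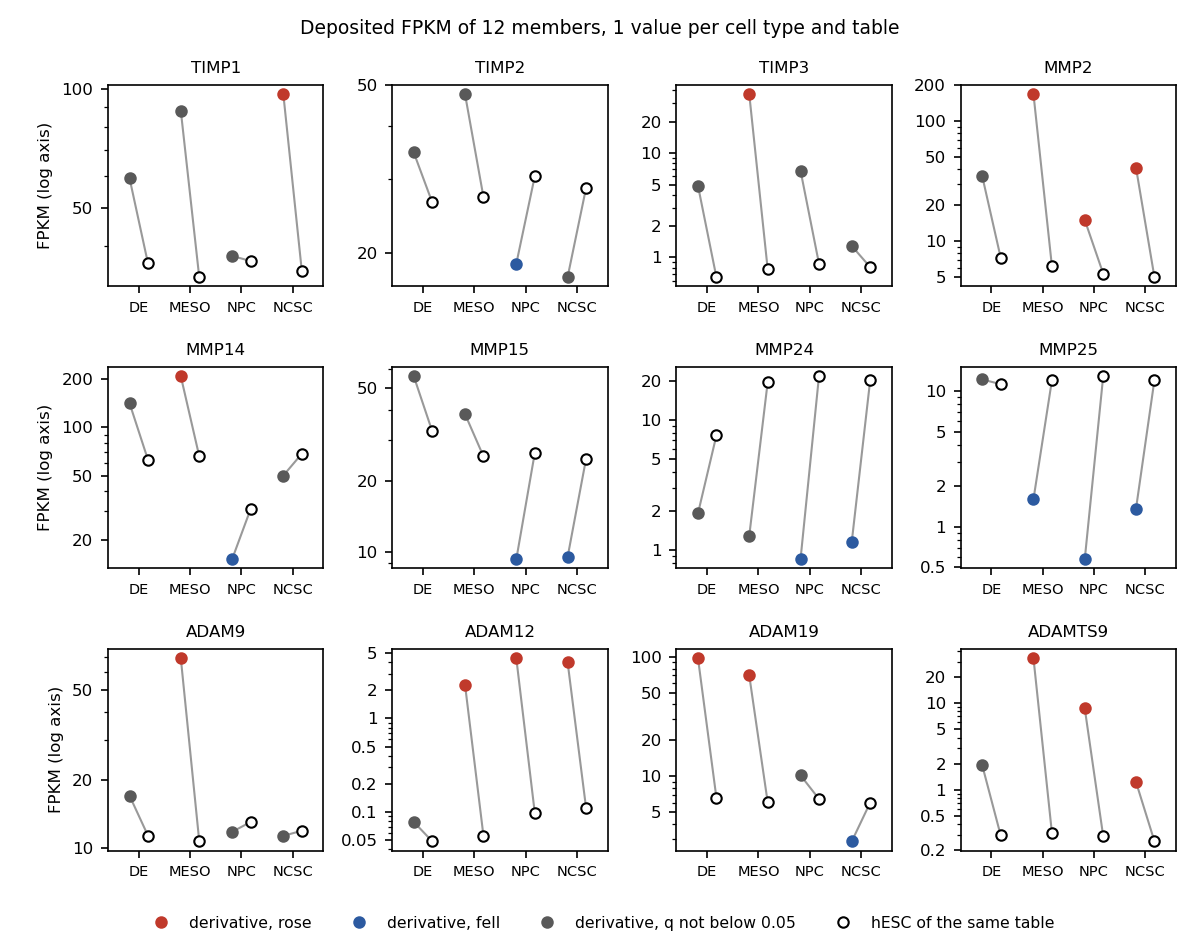
Deposited FPKM (log axis) of 12 members in each derivative (filled) and in hESC of the same table (open), with 1 value per cell type and no error. Red marks a rise, blue a fall and grey a q-value not below 0.05. MMP2 reaches 168 FPKM in MESO, TIMP3 36.7 FPKM in MESO, and ADAM19 97.6 FPKM in DE.

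Among MMPs, MMP2 rose in MESO, NPC and NCSC, MMP14 rose in MESO and fell in NPC, and MMP9, MMP15, MMP24 and MMP25 fell in NPC and NCSC. By count, 2 MMPs rose and 1 fell in MESO of 11 tested, 1 rose and 5 fell in NPC of 10 tested, and 1 rose and 4 fell in NCSC of 10 tested. In DE, of 10 tested, no MMP passed. The shares that rose were 18.2% in MESO, 10.0% in NPC and 10.0% in NCSC, beside 9.05%, 12.0% and 10.2% of all loci in that order, and the shares that fell were 9.09%, 50.0% and 40.0%, beside 5.37%, 24.8% and 19.7%. MMP2, gelatinase A, which degrades basement membrane collagen, stood at 34.9 FPKM in DE against 7.31 FPKM in hESC, 168 FPKM in MESO against 6.17 FPKM in hESC, 15.0 FPKM in NPC against 5.37 FPKM in hESC, and 40.9 FPKM in NCSC against 5.00 FPKM in hESC. It was above hESC in each table, by 27.2-fold in MESO, 8.18-fold in NCSC, 4.78-fold in DE and 2.80-fold in NPC, and the 4.78-fold ratio in DE had a q-value of 0.239 in the authors' deposited table. In the MESO table the MMP2 locus, chromosome 16 from 55512726 to 55620582 (hg19), is merged with LPCAT2, whose own level in the other tables was 1.16 to 1.96 FPKM in derivatives and 1.30 to 1.55 FPKM in hESC.

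MMP14, the membrane protease that activates MMP2, stood at 141 FPKM in DE against 62.7 FPKM in hESC, 207 FPKM in MESO against 65.9 FPKM in hESC, 15.1 FPKM in NPC against 30.9 FPKM in hESC, and 50.0 FPKM in NCSC against 68.4 FPKM in hESC. It rose 3.14-fold in MESO and fell in NPC to 0.489 of hESC. The rise was not called with normal p-values, centred or not, and the fall was called with uncentred ones but not with centred ones. The DE, MESO and NCSC values belong to a locus merged with MRPL52, a mitochondrial ribosomal protein gene, whereas the NPC table gives MMP14 alone. There MRPL52 stood at 19.3 FPKM in NPC and 44.5 FPKM in hESC, and the merged levels cannot be divided between the 2 genes, so the rise in MESO is that of the locus.

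Of the other membrane MMPs, none rose in MESO and MMP25 fell there. MMP15 stood at 55.9 FPKM in DE against 32.6 FPKM in hESC, 38.6 FPKM in MESO against 25.5 FPKM in hESC, 9.30 FPKM in NPC against 26.3 FPKM in hESC, and 9.48 FPKM in NCSC against 24.8 FPKM in hESC, and the falls in NPC and NCSC passed. MMP25, which is held by a lipid anchor, stood at 12.2 FPKM in DE against 11.3 FPKM in hESC, 1.59 FPKM in MESO against 12.0 FPKM in hESC, 0.573 FPKM in NPC against 12.9 FPKM in hESC, and 1.36 FPKM in NCSC against 12.1 FPKM in hESC. MMP25 thus fell in MESO, NPC and NCSC, and its DE level lay near that of hESC. MMP24, known for cleaving cadherins in neural tissue of mice, stood at 1.91 FPKM in DE against 7.65 FPKM in hESC, 1.29 FPKM in MESO against 19.7 FPKM in hESC, 0.846 FPKM in NPC against 21.8 FPKM in hESC, and 1.16 FPKM in NCSC against 20.5 FPKM in hESC, and passed the test in NPC and NCSC. Its locus also holds EIF6, a translation factor gene that fell in NPC and NCSC as well, at 41.1 FPKM in NPC against 149 FPKM in hESC. MMP16 and MMP17 did not pass in any table, with levels of 2.67 to 7.40 FPKM in derivatives against 5.19 to 9.83 FPKM in hESC.

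The secreted gelatinase B, MMP9, fell in NPC and NCSC, where MMP2 rose. It stood at 5.73 FPKM in DE against 4.63 FPKM in hESC, 4.05 FPKM in MESO against 3.83 FPKM in hESC, 0.256 FPKM in NPC against 3.98 FPKM in hESC, and 1.07 FPKM in NCSC against 3.84 FPKM in hESC, with ratios of 0.0645 in NPC and 0.278 in NCSC. MMP19 is merged with DNAJC14 in every table and stood at 10.9 to 19.3 FPKM in derivatives against 14.9 to 16.2 FPKM in hESC, with no call. MMP11 stood at 3.90 to 5.84 FPKM in derivatives against 3.25 to 4.25 FPKM in hESC, with no call. MMP28, a secreted MMP of epithelia, stood at 7.37 FPKM in MESO against 0.0476 FPKM in hESC, with a q-value of 0.206 in the authors' deposited table. The summed level of all MMPs was 285 FPKM in DE against 161 FPKM in hESC, 460 FPKM in MESO against 164 FPKM in hESC, 67.0 FPKM in NPC against 135 FPKM in hESC, and 132 FPKM in NCSC against 166 FPKM in hESC. Without MMP2, MMP14 and MMP19, the members merged with another gene in some table, the MMP sum was 92.7 FPKM in DE against 76.1 FPKM in hESC, 65.3 FPKM in MESO against 76.2 FPKM in hESC, 26.0 FPKM in NPC against 82.1 FPKM in hESC, and 29.8 FPKM in NCSC against 77.2 FPKM in hESC. Without those loci the MMP sum in MESO lay below that of hESC.

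**Figure D4:**
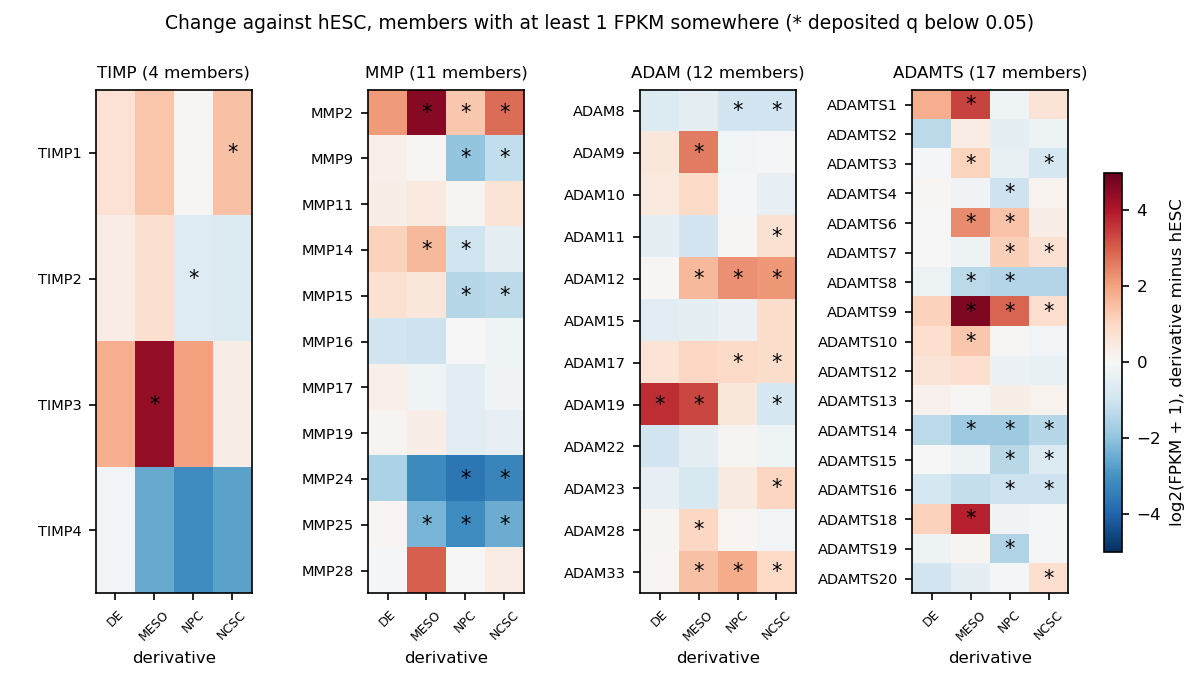
Change in log2(FPKM + 1), derivative minus hESC, for the 44 members with at least 1 FPKM in some cell type, by subfamily (panels) and derivative (columns). Red is higher and blue lower in the derivative, and an asterisk marks a deposited q-value below 0.05. ADAMTS9, MMP2 and TIMP3 are the darkest red cells in MESO, and MMP25 is blue in MESO, NPC and NCSC.

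Among ADAMs, 1 rose in DE of 10 tested, 5 rose in MESO of 13 tested, 3 rose and 1 fell in NPC of 11 tested, and 5 rose and 2 fell in NCSC of 11 tested. The shares that rose were 38.5% in MESO, 27.3% in NPC and 45.5% in NCSC, beside 9.05%, 12.0% and 10.2% of all loci in that order, and the shares that fell in NPC and NCSC, 9.09% and 18.2%, were below the 24.8% and 19.7% of all loci. With normal p-values, centred or not, the ADAM rises in MESO were ADAM9, ADAM12 and ADAM19. In NPC they were ADAM12 and ADAM33, with ADAM17 added by centring. In NCSC ADAM12 alone was higher, with ADAM23 and ADAM33 added by centring. No ADAM was called lower. In MESO, ADAM12 and ADAM28 stood below 1 FPKM in hESC, so they can enter the share through their MESO value. Of the 2 best known sheddases, ADAM17 rose in NPC and NCSC and ADAM10 did not pass. ADAM10, the main Notch and cadherin sheddase, stood at 59.8 FPKM in DE against 41.9 FPKM in hESC, 74.2 FPKM in MESO against 37.5 FPKM in hESC, 39.9 FPKM in NPC against 43.3 FPKM in hESC, and 30.3 FPKM in NCSC against 40.1 FPKM in hESC, with no call. ADAM17, which releases growth factors of the EGF family and tumour necrosis factor, stood at 21.5 FPKM in DE against 13.1 FPKM in hESC, 31.4 FPKM in MESO against 14.6 FPKM in hESC, 29.9 FPKM in NPC against 14.9 FPKM in hESC, and 27.3 FPKM in NCSC against 14.3 FPKM in hESC. ADAM17 rose in NPC (2.01-fold) and in NCSC (1.91-fold). Its 2.15-fold ratio in MESO had a q-value of 0.0918 in the authors' deposited table.

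ADAM19, a meltrin that in mice is needed for heart development, was the one member called in DE. It stood at 97.6 FPKM in DE against 6.58 FPKM in hESC, 69.9 FPKM in MESO against 6.04 FPKM in hESC, 10.2 FPKM in NPC against 6.46 FPKM in hESC, and 2.85 FPKM in NCSC against 6.03 FPKM in hESC. The rises were 14.8-fold in DE and 11.6-fold in MESO, and ADAM19 fell in NCSC to 0.473 of hESC. In NCSC, ADAM19 is split over 3 loci, and the one with the highest mean FPKM was used. In the MESO table the ADAM19 locus lies on chromosome 5 from 156904103 to 157003698 (hg19) and is shared with no other gene. ADAM12 and ADAM33 are its relatives. ADAM12, known from muscle and bone development, stood at 0.0786 FPKM in DE against 0.0487 FPKM in hESC, 2.29 FPKM in MESO against 0.0556 FPKM in hESC, 4.40 FPKM in NPC against 0.0988 FPKM in hESC, and 4.02 FPKM in NCSC against 0.112 FPKM in hESC. ADAM33, linked to airway smooth muscle, stood at 2.61 FPKM in DE against 2.39 FPKM in hESC, 6.71 FPKM in MESO against 1.77 FPKM in hESC, 9.31 FPKM in NPC against 1.82 FPKM in hESC, and 4.32 FPKM in NCSC against 1.66 FPKM in hESC. Both rose in MESO, NPC and NCSC, and in DE ADAM12 was not tested and ADAM33 did not pass.

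ADAM9, which is expressed in many tissues, stood at 17.0 FPKM in DE against 11.3 FPKM in hESC, 69.2 FPKM in MESO against 10.7 FPKM in hESC, 11.8 FPKM in NPC against 13.0 FPKM in hESC, and 11.3 FPKM in NCSC against 11.9 FPKM in hESC, and rose in MESO, 6.49-fold. In MESO, NPC and NCSC the ADAM9 locus is shared with TM2D2. ADAM28 also rose in MESO, at 1.32 FPKM in MESO against 0.122 FPKM in hESC. ADAM8 fell in NPC and NCSC, at 0.939 FPKM in NPC against 2.79 FPKM in hESC and at 0.643 FPKM in NCSC against 2.17 FPKM in hESC. ADAM11, ADAM22 and ADAM23, which are among the members without a working active site, are known as neural surface proteins. ADAM23 rose in NCSC, at 14.0 FPKM in NCSC against 6.06 FPKM in hESC, and ADAM11 rose there too, at 3.73 FPKM in NCSC against 1.77 FPKM in hESC. In NPC neither passed, with ADAM23 at 8.51 FPKM in NPC against 5.96 FPKM in hESC and ADAM11 at 1.90 FPKM in NPC against 1.75 FPKM in hESC. ADAM22 and ADAM15 had no call, with ADAM15 at 7.12 to 17.4 FPKM in derivatives against 9.03 to 12.7 FPKM in hESC. The summed ADAM level was 215 FPKM in DE against 101 FPKM in hESC, 269 FPKM in MESO against 93.7 FPKM in hESC, 129 FPKM in NPC against 103 FPKM in hESC, and 119 FPKM in NCSC against 96.5 FPKM in hESC.

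**Figure D5:**
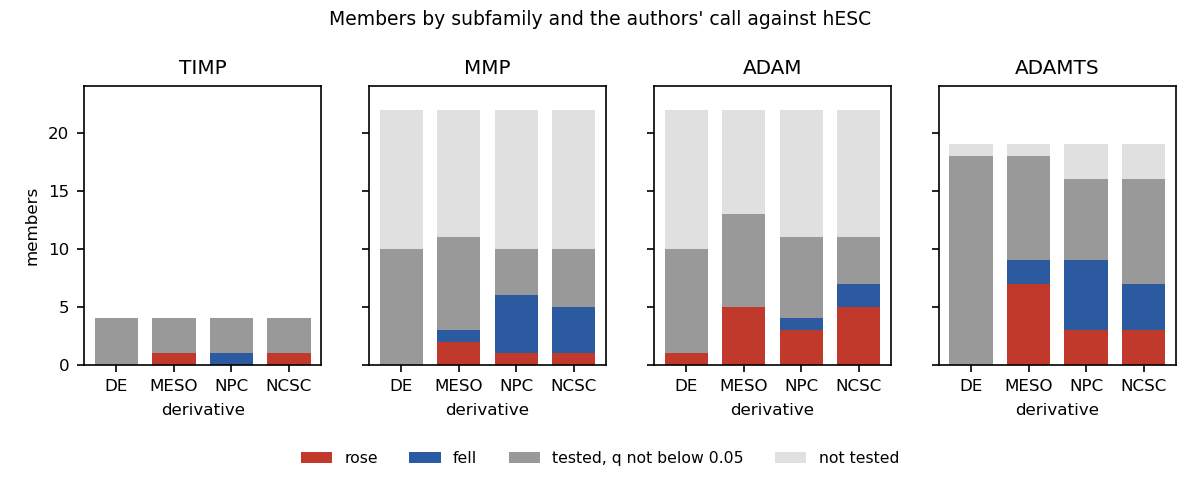
Number of members in each subfamily that rose, fell, were tested with a q-value not below 0.05, or were not tested, for each derivative against hESC. ADAMTS genes show 7 rises and 2 falls in MESO but 3 rises and 6 falls in NPC, and the palest bars are the genes not tested.

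By count, the ADAMTS genes gave the most calls in MESO and NPC, and they also had the most members tested. Of 18 tested in MESO 7 rose and 2 fell, and of 16 tested in NPC 3 rose and 6 fell. In NCSC, 3 rose and 4 fell of 16 tested. As a share of those tested, 50.0% of ADAMTS genes changed in MESO, against 14.4% of all loci. In NPC that share was 56.2%, against 60.0% of MMPs and 36.8% of all loci. In MESO, the risen ADAMTS5, ADAMTS6, ADAMTS9 and ADAMTS18 stood below 1 FPKM in hESC. ADAMTS5 and ADAMTS18 were not tested in NPC or NCSC. Such members can enter the share through their MESO value, so the shares are a description and no support for a rise of the subfamily. In DE, of 18 tested, no ADAMTS gene passed. The shares that rose were 38.9% in MESO, 18.8% in NPC and 18.8% in NCSC, beside 9.05%, 12.0% and 10.2% of all loci in that order, and the shares that fell were 11.1%, 37.5% and 25.0%, beside 5.37%, 24.8% and 19.7%. ADAMTS9, which cleaves versican and is needed for early development in mice, stood at 1.92 FPKM in DE against 0.299 FPKM in hESC, 32.8 FPKM in MESO against 0.318 FPKM in hESC, 8.66 FPKM in NPC against 0.293 FPKM in hESC, and 1.23 FPKM in NCSC against 0.255 FPKM in hESC. It rose 103-fold in MESO, 29.6-fold in NPC and 4.83-fold in NCSC, and the 6.41-fold ratio in DE had a q-value of 0.253 in the authors' deposited table. Its locus, chromosome 3 from 64501328 to 64997143 (hg19), also holds the antisense gene ADAMTS9-AS2, whose reads may not have been told apart.

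ADAMTS1, another versican-cleaving enzyme, stood at 21.2 FPKM in DE against 5.32 FPKM in hESC, 43.6 FPKM in MESO against 3.27 FPKM in hESC, 3.92 FPKM in NPC against 4.70 FPKM in hESC, and 7.38 FPKM in NCSC against 4.21 FPKM in hESC. Its rise in MESO was 13.4-fold, and the q-value for DE was 0.239 in the authors' deposited table. ADAMTS5, its neighbour on chromosome 21, also rose in MESO but at 0.509 FPKM in MESO against 0.0831 FPKM in hESC. The related enzymes ADAMTS8 and ADAMTS15, neighbours on chromosome 11 from 130274817 to 130346539 (hg19), fell instead. ADAMTS8 fell in MESO, at 0.0823 FPKM in MESO against 1.74 FPKM in hESC, and in NPC, at 0.0430 FPKM in NPC against 1.88 FPKM in hESC. In NCSC ADAMTS8 stood at 0.0161 FPKM against 1.77 FPKM in hESC and did not pass (q-value 0.127 in the authors' deposited table). With normal p-values it was called lower in NCSC, and with centred ones it was not. ADAMTS15 fell in NPC, at 0.0542 FPKM in NPC against 1.74 FPKM in hESC, and in NCSC, at 0.652 FPKM in NCSC against 1.63 FPKM in hESC. ADAMTS4, an aggrecan-cleaving enzyme, fell in NPC, at 2.47 FPKM in NPC against 6.20 FPKM in hESC. ADAMTS20, known for pigment cell migration in mice, rose in NCSC, at 3.64 FPKM in NCSC against 1.59 FPKM in hESC. The enzymes that cut large proteoglycans thus moved in both directions within a single culture.

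Of the procollagen-trimming enzymes, ADAMTS14 fell in MESO, NPC and NCSC, ADAMTS3 rose in MESO and fell in NCSC, and ADAMTS2 did not pass. ADAMTS14 stood at 1.16 FPKM in DE against 4.52 FPKM in hESC, 0.208 FPKM in MESO against 3.29 FPKM in hESC, 0.266 FPKM in NPC against 3.51 FPKM in hESC, and 0.729 FPKM in NCSC against 3.68 FPKM in hESC. ADAMTS3 stood at 1.38 FPKM in DE against 1.55 FPKM in hESC, 3.53 FPKM in MESO against 1.07 FPKM in hESC, 1.02 FPKM in NPC against 1.59 FPKM in hESC, and 0.187 FPKM in NCSC against 1.18 FPKM in hESC. ADAMTS2 ranged from 2.34 to 9.31 FPKM in derivatives against 6.96 to 8.37 FPKM in hESC. Their collagen substrates COL1A1, COL1A2 and COL3A1 all rose in MESO, with COL1A1 at 549 FPKM in MESO against 92.3 FPKM in hESC. In NCSC, COL1A1 rose to 329 FPKM against 89.8 FPKM in hESC, and COL1A2 to 413 FPKM against 22.9 FPKM in hESC. The sum of the 5 fibroblast markers, which include both, was 742 FPKM in NCSC and 114 FPKM in hESC. COL1A1 and COL1A2 made up most of that sum. Of the other fibroblast markers, PDGFRA fell in NCSC. DCN and LUM were not tested there, at 0.0506 FPKM and 0.0926 FPKM in NCSC.

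The enzymes tied to fibrillin microfibrils, ADAMTS6 and ADAMTS10, both rose in MESO. ADAMTS6 stood at 6.03 FPKM in MESO against 0.374 FPKM in hESC and at 2.92 FPKM in NPC against 0.465 FPKM in hESC, and rose in both. ADAMTS10 stood at 5.31 FPKM in MESO against 1.48 FPKM in hESC and at 5.02 FPKM in DE against 2.40 FPKM in hESC, where it did not pass. ADAMTS18, known from eye disease, stood at 1.54 FPKM in DE against 0.133 FPKM in hESC, 17.4 FPKM in MESO against 0.236 FPKM in hESC, 0.0123 FPKM in NPC against 0.138 FPKM in hESC, and 0.0637 FPKM in NCSC against 0.128 FPKM in hESC. ADAMTS18 rose in MESO, 73.7-fold, and was not tested in NPC or NCSC. Its close relative ADAMTS16 fell in NPC, at 1.63 FPKM in NPC against 4.45 FPKM in hESC, and in NCSC, at 1.73 FPKM in NCSC against 4.68 FPKM in hESC. ADAMTS19 fell in NPC, at 2.10 FPKM in NPC against 7.72 FPKM in hESC. ADAMTS7, which cleaves cartilage oligomeric matrix protein, rose in NPC, at 36.2 FPKM in NPC against 15.5 FPKM in hESC, and in NCSC, at 25.5 FPKM in NCSC against 14.5 FPKM in hESC. ADAMTS12 and ADAMTS13 did not pass in any table, with ADAMTS12 at 15.7 FPKM in MESO against 8.26 FPKM in hESC. The substrate of ADAMTS13, von Willebrand factor (VWF), rose in DE, at 11.7 FPKM in DE against 0.403 FPKM in hESC, while ADAMTS13 itself stood at 5.43 FPKM in DE against 4.48 FPKM in hESC. The summed ADAMTS level was 87.0 FPKM in DE against 74.7 FPKM in hESC, 165 FPKM in MESO against 63.9 FPKM in hESC, 79.4 FPKM in NPC against 71.1 FPKM in hESC, and 73.5 FPKM in NCSC against 67.3 FPKM in hESC.

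Of 29 genes that activate or restrain these proteases, 28 were tested, and 9 rose and 5 fell in MESO, 5 rose and 7 fell in NPC, 8 rose and 6 fell in NCSC, and 0 changed in DE, where 2 were higher and 2 lower at an unadjusted p-value below 0.05 in the authors' deposited table. Over all loci 9.05% rose and 5.37% fell in MESO, 12.0% rose and 24.8% fell in NPC, and 10.2% rose and 19.7% fell in NCSC, so the regulators that fell in NPC were near the share of all loci. The median change of the regulators was 0.16 in DE, 0.63 in MESO, -0.22 in NPC and 0.16 in NCSC. FURIN, which cuts the precursors of membrane MMPs and ADAMs, rose in MESO, at 115 FPKM in MESO against 13.9 FPKM in hESC, and fell in NCSC, at 7.44 FPKM in NCSC against 14.1 FPKM in hESC. TSPAN5, a tetraspanin that carries ADAM10 to the surface, rose in MESO, NPC and NCSC, at 24.9 FPKM in MESO against 5.17 FPKM in hESC, 19.6 FPKM in NPC against 5.85 FPKM in hESC, and 11.2 FPKM in NCSC against 5.34 FPKM in hESC. ADAM10 itself did not pass in any of these. Of the other tetraspanins listed, TSPAN14 rose in MESO and NPC, and TSPAN15 rose in MESO. TSPAN33 fell in MESO, at 2.97 FPKM in MESO against 14.9 FPKM in hESC. It also fell in NCSC, at 8.98 FPKM in NCSC against 15.5 FPKM in hESC. TSPAN10 and TSPAN17 had no call. RHBDF1, a rhomboid relative that carries ADAM17, rose in MESO and NCSC, at 25.3 FPKM in MESO against 10.6 FPKM in hESC and 20.5 FPKM in NCSC against 10.5 FPKM in hESC. RHBDF2, a relative of RHBDF1, had no call. It stood at 0.606 FPKM in NPC against 9.11 FPKM in hESC, and at 1.71 FPKM in NCSC against 8.79 FPKM in hESC. In DE it was higher, at 12.6 FPKM in DE against 11.2 FPKM in hESC. RECK, a membrane-anchored MMP inhibitor, had no call, with 9.92 FPKM in NCSC against 5.65 FPKM in hESC as its highest level. PAPLN, an ADAMTS-like matrix protein, rose in NPC, at 19.1 FPKM in NPC against 4.31 FPKM in hESC, and in NCSC, at 19.5 FPKM in NCSC against 3.62 FPKM in hESC.

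Of 18 surface substrates of ADAM10 and ADAM17, 15 were tested, and 1 rose in DE, 6 rose and 1 fell in MESO, 6 rose and 7 fell in NPC, and 3 rose and 5 fell in NCSC, to be read against the same shares of all loci. Their median change was 0.12 in DE, 0.65 in MESO, -0.26 in NPC and 0.14 in NCSC. The Notch ligand DLL1 rose in NPC, at 99.6 FPKM in NPC against 5.29 FPKM in hESC. CDH1, the epithelial cadherin, fell in NPC, at 0.0631 FPKM in NPC against 89.6 FPKM in hESC, and CDH2, the neural cadherin, rose in all 4 derivatives, with 247 FPKM in DE against 17.9 FPKM in hESC. Of 18 matrix substrates, 11 rose and 2 fell in MESO of 17 tested, and 5 rose and 4 fell in NPC of 16 tested. In NCSC 4 rose and 4 fell of 15 tested, and in DE 1 rose of 16 tested. Over all loci 9.05% rose and 5.37% fell in MESO, and 12.0% rose and 24.8% fell in NPC. The shares of all loci were 10.2% and 19.7% in NCSC, and 0.406% and 0.0203% in DE. The matrix substrates that fell in NPC were thus near the share of all loci. The median change of the matrix substrates was 0.25 in DE, 1.96 in MESO, 0.05 in NPC and 0.30 in NCSC. Over all loci with the same minimum it was 0.05, 0.07, -0.27 and -0.23 in that order. Fibronectin (FN1) rose in MESO, at 731 FPKM in MESO against 27.3 FPKM in hESC, and versican (VCAN) fell in NPC, at 10.4 FPKM in NPC against 71.5 FPKM in hESC. In MESO versican did not pass, at 46.4 FPKM in MESO against 63.3 FPKM in hESC, although ADAMTS1 and ADAMTS9 rose there. COL1A1, COL1A2 and DCN of this list are also fibroblast markers.

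Among 7 tolloid and meprin relatives, 4 were tested. BMP1, the tolloid enzyme that trims the other end of procollagens, rose in MESO, at 16.0 FPKM in MESO against 3.49 FPKM in hESC. TLL2 fell in NPC and NCSC, and so did the locus of PCOLCE, which is merged with another gene in every table. Of the 9 family names outside the rule that were found, ADAMTSL2 and ADAMTSL4, which lack a protease domain, rose in MESO, with ADAMTSL4 at 21.6 FPKM in MESO against 2.84 FPKM in hESC. ADAMTSL4 and ADAMTSL5 fell in NPC and NCSC, and ADAMTSL2 rose in NCSC, at 0.615 FPKM in NCSC against 0.0539 FPKM in hESC.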

How the data were processed

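Per the labels, the 10 libraries held polyadenylated RNA, with 2 libraries per cell type. Build hg19, Cufflinks 2.2.1, featureCounts, Subread 1.5.2 and TopHat2 2.0.13 appear in the submitters' processing notes, with no role given. The authors deposited 4 tables, each with 1 FPKM value for a derivative and 1 for hESC, so replicates had been combined. Per the file headers, the authors also deposited a test statistic (a signed score), a p-value and a q-value, and the lowest p-value is 5e-05 in every table. A deposited column of log2 ratios was not used.

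Gene symbols were split at commas and, per symbol, the locus with the highest mean FPKM was kept. A member was called at a deposited q-value below 0.05 over all loci of its table. Tests on libraries with limma had been planned and could not be run on 1 value per cell type. The members and gene lists (regulators, tolloid relatives, family names outside the rule, ADAM10 and ADAM17 substrates, matrix substrates, markers) were chosen with earlier results of these data known. Named with values were members called in any table, those with at least 10 FPKM somewhere, and TIMP1 to TIMP4, ADAM10, ADAM17, MMP2 and MMP14; other genes were named after their values were seen. Promoters came from RefSeq (GRCh38.p14) and loci from the tables (hg19). Computations used Python 3.11.15, pandas 2.3.3 and scipy 1.17.1, and the step that computes normal p-values was tested on simulated data. Alternatives were pseudocounts of 0.1 and 5, a minimum of 1 FPKM, a minimum log2 change of 1, all loci of a symbol, merged loci left out, hESC of the other 3 tables, quantile normalization and normal p-values. Centred normal p-values and leaving out members that share a locus were added after seeing the data.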

Additional observations from a re-analysis of the deposited data

Results flagged for a closer look

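A total of 3 members rose in 1 culture and fell in another, and the difference between cultures was not tested. ADAM19 changed by 3.70 in DE, 3.33 in MESO and -0.87 in NCSC, as the difference in log2(FPKM + 1) from hESC. Its NCSC value is that of 1 of 3 loci, the one with the highest mean FPKM. ADAMTS3 changed by 1.13 in MESO and -0.88 in NCSC. MMP14 changed by 1.64 in MESO, where its locus is merged with MRPL52, and by -0.99 in NPC, where it stands alone, so these values are not of the same locus. With normal p-values from the deposited statistics, centred or not, the ADAM19 fall in NCSC and the ADAMTS3 rise in MESO were not called. The MMP14 rise in MESO was not called either, so none of the 3 members kept calls in both directions. The MMP14 fall in NPC was called with the uncentred normal p-values but not with the centred ones.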

How the results depend on the processing

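No paired analysis was possible because the tables hold 1 value per cell type, and for the same reason no library could be left out and no fit with a block could be made. The number of members called in DE was 1 under every alternative, and in MESO and NPC it stayed within 1.5 times the 18 and 20 reported. In NCSC, 20 members were called, but 10 with a minimum log2 change of 1, 11 with normal p-values and 11 with centred normal p-values; the cause was not tested. Of the 11 with normal p-values, 9 were among the 20, and of the 11 with centred ones, 11 were. The median changes kept their direction. With a pseudocount of 0.1 they were 0.14 in DE, 0.51 in MESO, -0.25 in NPC and -0.22 in NCSC, and with 5 they were 0.10 in DE, 0.27 in MESO, -0.12 in NPC and -0.11 in NCSC. The next values are in that order of cell types. Over all 67 members they were 0.0014, 0.0415, -0.0185 and -0.0169. Against the hESC values of the other 3 tables they were 0.28, 0.36, -0.0819 and -0.18, and after quantile normalization 0.0416, 0.24, -0.0908 and -0.0529. In MESO the normal p-values, centred or not, added MMP28 and kept 11 of the 18 calls. ADAM28, ADAM33, ADAMTS3, ADAMTS5, ADAMTS10, MMP14 and TIMP3 were lost, and the rises were 9 in place of 15. In NPC the uncentred ones lost ADAM8, ADAM17, ADAMTS16 and TIMP2. In NCSC they lost ADAM8, ADAM11, ADAM17, ADAM19, ADAM23, ADAM33, ADAMTS7, ADAMTS15, ADAMTS16, ADAMTS20 and TIMP1, and added ADAMTS8 and TIMP4. Leaving out members that share a locus gave 12 calls in MESO, with 9 rises. Depth is unknown, and no error of a single level can be given. Members near 0 were mostly not tested, so a small change in them was not detectable. Loci shared or merged with other genes limit all TIMP genes, MMP14, MMP19, MMP24 and, in MESO, MMP2. The same limit holds for ADAM10, ADAM15, ADAM17, ADAMTS5, ADAMTS9, ADAMTS13 and, near 0, MMP1 and MMP3. For ADAM9 it holds in MESO, NPC and NCSC, and for ADAMTS4 in DE and NCSC. In NCSC 8 members are split over several loci, and the one with the highest mean FPKM was used. They are ADAM9, ADAM19, ADAM22, ADAMTS6, ADAMTS12, ADAMTS16, ADAMTS19 and MMP16.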
